A study of Mus musculus with 14 samples.

Results

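This report describes 10 genes of innate pattern recognition and of the inflammasome in microglia of the mouse retina. The genes are Tlr2, Tlr4, Tlr7, Tlr9, Cd14, Clec7a, Myd88, Nlrp3, Pycard and Casp1. They form a list of names, fixed by function with earlier results of these data known, and all 10 were found among the 35735 genes of the deposited series table. All 10 also passed the filter on low counts that left 7617 genes tested.

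RNA was sequenced from microglia, the resident macrophages of neural tissue, of 14 retinas, 1 library per retina. The groups were APOE E4/E4 mice (APOE4) after a microbead injection (n = 3), APOE E3/E3 mice (APOE3) after a microbead injection (n = 3), APOE4 mice after a sham injection (n = 4) and APOE3 mice after a sham injection (n = 4). Microbeads in the front of the eye obstruct the outflow of fluid and raise eye pressure, which models glaucoma, and the series asks how APOE genotype bears on retinal microglia in that disease. Mice were 12 weeks old, and cells were sorted as CD11b+, Ly6c- and Fcrls+ after a Percoll gradient. A retina gave 100 to 600 cells, and 100 to 300 cells entered 5 µl of lysis buffer. Every mouse carried an APOE genotype named E3 or E4, and no other genotype was among the samples. Whether each retina was from its own animal is not stated, so p-values measure the spread between these retinas, which may be in part technical.

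Toll-like receptors recognise conserved microbial molecules and some products of damaged tissue. Tlr2 and Tlr4 sit at the cell surface, Tlr4 with the help of the co-receptor Cd14, while Tlr7 and Tlr9 recognise RNA and DNA inside endosomes, and all 4 signal through the adaptor Myd88 to NF-κB. Clec7a (Dectin-1) is a surface lectin that recognises β-glucans, and its transcript is a known marker of microglia that respond to disease. The NLRP3 inflammasome is assembled inside the cell from the sensor Nlrp3, the adaptor Pycard (ASC) and the protease Casp1, which matures interleukin-1β and interleukin-18.

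The promoters of Tlr2, Tlr9 and Clec7a are shown because these 3 genes carried the differences with the smallest unadjusted p-values in the treatment comparisons (Tlr2) and the genotype comparisons (Clec7a after microbeads, Tlr9 after sham). The sequences are RefSeq's for GRCm38.p6 and run from 250 bases before to 50 bases after the start site, 5′ to 3′ on the strand of the gene. They cover chr3:83841559-83841858 on the minus strand for Tlr2, chr9:106222348-106222647 on the plus strand for Tlr9 and chr6:129472730-129473029 on the minus strand for Clec7a. Capitals mark matches to short motifs of factors that act at such genes: the κB consensus in Tlr2, PU.1 (GAGGAA) in Tlr9 and Clec7a, and AP-1 (TGANTCA) in Tlr9.
Tlr2: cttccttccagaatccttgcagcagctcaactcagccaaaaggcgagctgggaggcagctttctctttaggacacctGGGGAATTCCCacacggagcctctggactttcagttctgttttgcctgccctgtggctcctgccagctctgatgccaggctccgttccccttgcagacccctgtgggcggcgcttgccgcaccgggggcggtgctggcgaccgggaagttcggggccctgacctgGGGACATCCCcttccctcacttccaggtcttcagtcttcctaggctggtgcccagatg
Tlr9: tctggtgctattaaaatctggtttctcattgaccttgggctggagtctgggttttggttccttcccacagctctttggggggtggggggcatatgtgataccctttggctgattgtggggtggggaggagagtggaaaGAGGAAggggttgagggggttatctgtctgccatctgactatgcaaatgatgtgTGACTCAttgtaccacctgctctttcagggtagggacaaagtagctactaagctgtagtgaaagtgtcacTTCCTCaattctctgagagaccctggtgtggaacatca
Clec7a: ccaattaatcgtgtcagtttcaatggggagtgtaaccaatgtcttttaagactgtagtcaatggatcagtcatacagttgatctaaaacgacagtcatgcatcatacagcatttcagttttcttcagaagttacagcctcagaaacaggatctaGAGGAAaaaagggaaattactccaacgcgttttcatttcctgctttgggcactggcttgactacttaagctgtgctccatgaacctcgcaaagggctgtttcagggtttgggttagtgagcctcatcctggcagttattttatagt
The Tlr2 promoter held 2 overlapping κB matches whose first bases lay at -173 and -172 from the start site, and a further match at -8. The Tlr9 promoter held PU.1 matches at -112 and 12 and an AP-1 match at -58, and the Clec7a promoter held 1 PU.1 match at -96. Tlr4 and Tlr7 had no promoter in the RefSeq table, and Cd14 was left out of the search. Of the 7 of the 10 genes that were searched, 5 held a PU.1 match. Counted by promoter, since Clec7a and Nlrp3 have 2 entries each, 6 of 9 held it, against 28.28% of all 32851 promoters of that length, searched on both strands. The κB consensus was found in 2 of the 9 promoters (1 of Tlr2 and 1 of Nlrp3), against 8.46%. AP-1 was found in 1 (Tlr9), against 7.81%, and the interferon response motif GAAANNGAA in 1 (Myd88), against 8.56%. The 2 entries of Clec7a share nearly all their bases. These matches describe letters in a window and were not tested as sites of binding.

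Depth was 453429 to 730134 estimated reads per library, and 226815 to 447915 reads once 12 satellite repeat genes with 38.5% to 65.3% of all reads were set aside. All 12 microglial markers, among them P2ry12, Tmem119 and Fcrls, were read in every group. Their summed level was 14086 to 16324 CPM (counts per library size, with TMM scaling) in APOE4 microbead, 6798 to 11621 CPM in APOE3 microbead, 14175 to 16802 CPM in APOE4 sham and 14106 to 19111 CPM in APOE3 sham. The 12 monocyte markers summed to 67.9 to 92.5 CPM in APOE4 microbead, where Ly6c1 was at 0, and 32.4 to 58.8 CPM in APOE4 sham. They summed to 237, 426 and 59.8 CPM in the APOE3 microbead libraries 1, 2 and 3, against 42.6 to 87.7 CPM in APOE3 sham. The APOE3 microbead libraries 1 and 2 thus stood above every other library in monocyte markers, and the fold changes in APOE3 that turned or lost a call without them are given both ways, where leaving out both leaves 1 library in that group. Border macrophage markers reached 440.5 CPM in APOE3 microbead library 2, against 203 to 293 CPM in APOE3 sham. Dendritic cell markers were at 29.1 to 87.7 CPM in APOE3 microbead, against 14.97 to 28.7 CPM in APOE3 sham. Muller glia and astrocyte markers were at 206 to 250.2 CPM in APOE3 microbead, against 160.1 to 187 CPM in APOE3 sham. In both of these lists all 3 APOE3 microbead libraries lay above all 4 APOE3 sham libraries, and their part in the results below was not tested. Rod photoreceptor markers were at 247 to 667 CPM in APOE4 microbead and 152 to 709 CPM in APOE3 microbead. They reached 350 to 1563 CPM in APOE4 sham and 243 to 1911 CPM in APOE3 sham, and their part was not tested. Neutrophil markers summed to 195 to 439.7 CPM per library, of which Csf3r alone held 172 to 421 CPM. Cxcr2 was read in 13 of the 14 libraries at up to 47.2 CPM, and Mmp9 in 5 at up to 3.46 CPM. Retnlg was read in 3 at up to 3.88 CPM. The granule genes S100a8, S100a9, Ngp, Camp and Ltf and the surface marker Ly6g were each read in 1 to 3 of the 14 libraries, at up to 5.06 CPM.

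The 10 genes differed widely in depth and in level. Cd14 (1343 reads over the 14 libraries), Pycard (1294) and Tlr2 (936) were the deepest, and Casp1 (171), Tlr4 (179) and Nlrp3 (232) were the shallowest, with as few as 3 reads in a library for Nlrp3 and Casp1. No gene was at 0 in any library. Per transcript length, on the deposited TPM scale, the median level over 14 libraries was highest for Pycard (44.4 TPM) and Cd14 (30.4 TPM). Tlr7 followed at 16.2 TPM, Clec7a at 10.1 TPM and Tlr2 at 10.03 TPM. Casp1 stood at 6.20 TPM, Tlr9 at 6.19 TPM, Myd88 at 4.08 TPM, Tlr4 at 3.38 TPM and Nlrp3 at 2.62 TPM. Pycard was above Cd14, and Cd14 above Tlr7, in 13 of 14 libraries. The neighbours below them held their order in 6 to 11 of 14 libraries, so those levels could not be told apart beyond the spread of single libraries.

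**Figure D1:**
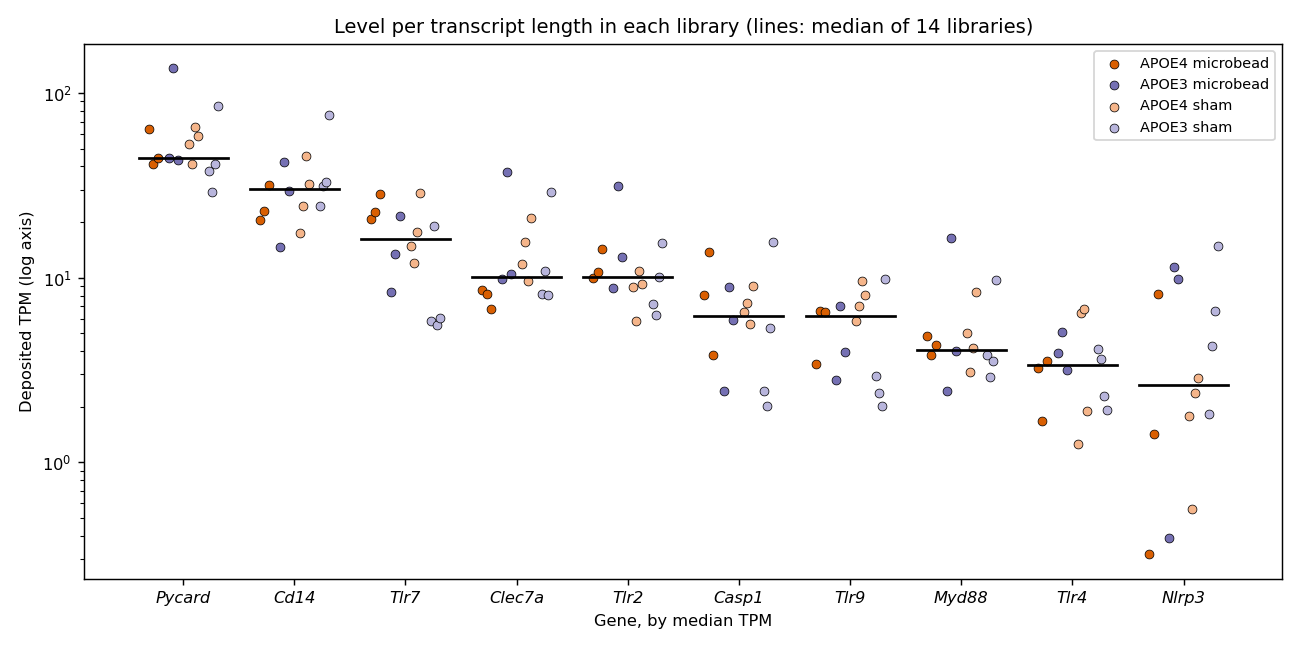
Deposited TPM of the 10 genes in each of the 14 libraries on a log axis, ordered by the median over libraries (black lines), with points coloured by group. Pycard (median 44.4 TPM) and Cd14 (30.4 TPM) lie highest and Nlrp3 (2.62 TPM) lowest, and the ranges of neighbouring genes overlap.

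Tlr2, the surface receptor for bacterial lipoproteins, was higher after microbeads in both genotypes. Its gene lies at chr3:83836272-83841767 on the minus strand (GRCm38, ENSMUSG00000027995.10), and all its reads fell on 1 transcript. Tlr2 stood at 124, 115 and 138 CPM in the APOE4 microbead libraries, against 88.2, 57.2, 78.5 and 61.7 CPM in the APOE4 sham libraries. It stood at 132, 189 and 135 CPM in the APOE3 microbead libraries, against 87.4, 75.9, 113 and 88.7 CPM in the APOE3 sham libraries. All 6 microbead libraries were above all 8 sham libraries. In these bulk samples, more or fewer cells of a type and more or less RNA per cell cannot be told apart.

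In APOE3, Tlr2 rose 1.68-fold after microbeads (log2 fold change 0.75 ± 0.22 SE, 95% interval 0.30 to 1.20, edgeR adjusted p = 0.0399). The means were 152 ± 32.1 CPM after microbeads and 91.3 ± 15.7 CPM after sham (SD, n = 3 and 4). In APOE4 the fold was 1.76 (log2 fold change 0.81 ± 0.23 SE, 95% interval 0.35 to 1.28) and missed the threshold, with an adjusted p of 0.186. The means there were 126 ± 11.5 CPM after microbeads and 71.4 ± 14.5 CPM after sham (SD, n = 3 and 4). The difference between the genotypes in this response was 0.06 on the log2 scale (95% interval -0.58 to 0.71, adjusted p = 0.988), a wide interval that holds differences of either sign. Over both genotypes, a comparison added after the data were seen, Tlr2 rose 1.72-fold (log2 fold change 0.78 ± 0.16 SE, 95% interval 0.46 to 1.10, adjusted p = 0.00242). APOE4 against APOE3 gave -0.29 ± 0.23 (SE, log2) after microbeads and -0.35 ± 0.21 after sham, with adjusted p-values of 0.800 and 0.958. Over both treatments it gave -0.32 ± 0.16 (95% interval -0.64 to 0.004, adjusted p = 0.713).

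The call in APOE3 was close to the threshold. Leaving out 1 library at a time kept it in 7 of 14 cases and lost it in 7. It was lost without APOE3 microbead library 2 (log2 fold change 0.56, adjusted p = 0.293), without APOE3 sham library 1, 2 or 4 (adjusted p 0.0949, 0.131 and 0.0893), without APOE4 sham library 3 (0.0512) and without APOE4 microbead library 2 or 3 (0.0521 and 0.0513). Without both APOE3 microbead libraries with high monocyte markers, 1 library is left in that group and assumed to vary like the others, and the log2 fold change was 0.57 (adjusted p = 0.647). It was 0.58 (adjusted p = 0.561) in a fit that held the monocyte markers as a covariate. The part of those markers in the rise was otherwise not tested. The call was also lost with library totals in place of TMM (adjusted p = 0.301) and with limma on log2(TPM + 1) (0.992). The library left, APOE3 microbead 3, had monocyte markers at 59.8 CPM and held 135 CPM of Tlr2, above every sham library. Its microglial markers, at 11621 CPM, were below those of every library of the other groups. Its dendritic cell markers (29.1 CPM) and Muller glia and astrocyte markers (248 CPM) were above every APOE3 sham library. The part of these cells in Tlr2 was not tested. Over both genotypes the call was kept in all 14 cases with 1 library left out (adjusted p 0.00182 to 0.0129), and was lost in 5 of 28 alternatives. These were library totals, limma on TPM with either pseudocount, leaving out both those APOE3 microbead libraries (log2 fold change 0.70, adjusted p = 0.0565) and the monocyte covariate (0.66, adjusted p = 0.199).

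Tlr2 was the only one of the 10 genes called in any comparison. In APOE3, microbead against sham, 1 of 10 was called higher and 0 lower, against 5.33% of all 7617 genes called (3.62% higher and 1.71% lower). In APOE4, microbead against sham, 0 of 10 were called, against 0.223% of all genes. Over both genotypes 1 of 10 was called, against 4.65% of all genes (3.3% higher and 1.35% lower). A count of 1 in 10 is too small to set the group apart from all genes. The share of all genes whose microbead libraries lay wholly above their sham libraries was 7.65% in APOE3, 5.02% in APOE4 and 0.932% with all 6 microbead against all 8 sham libraries. Tlr2 alone of the 10 genes met each of these 3 conditions. The median log2 fold change of the 10 genes was 0.23 in APOE4, against -0.0037 for all genes tested, and 0.29 in APOE3, against -0.016.

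**Figure D2:**
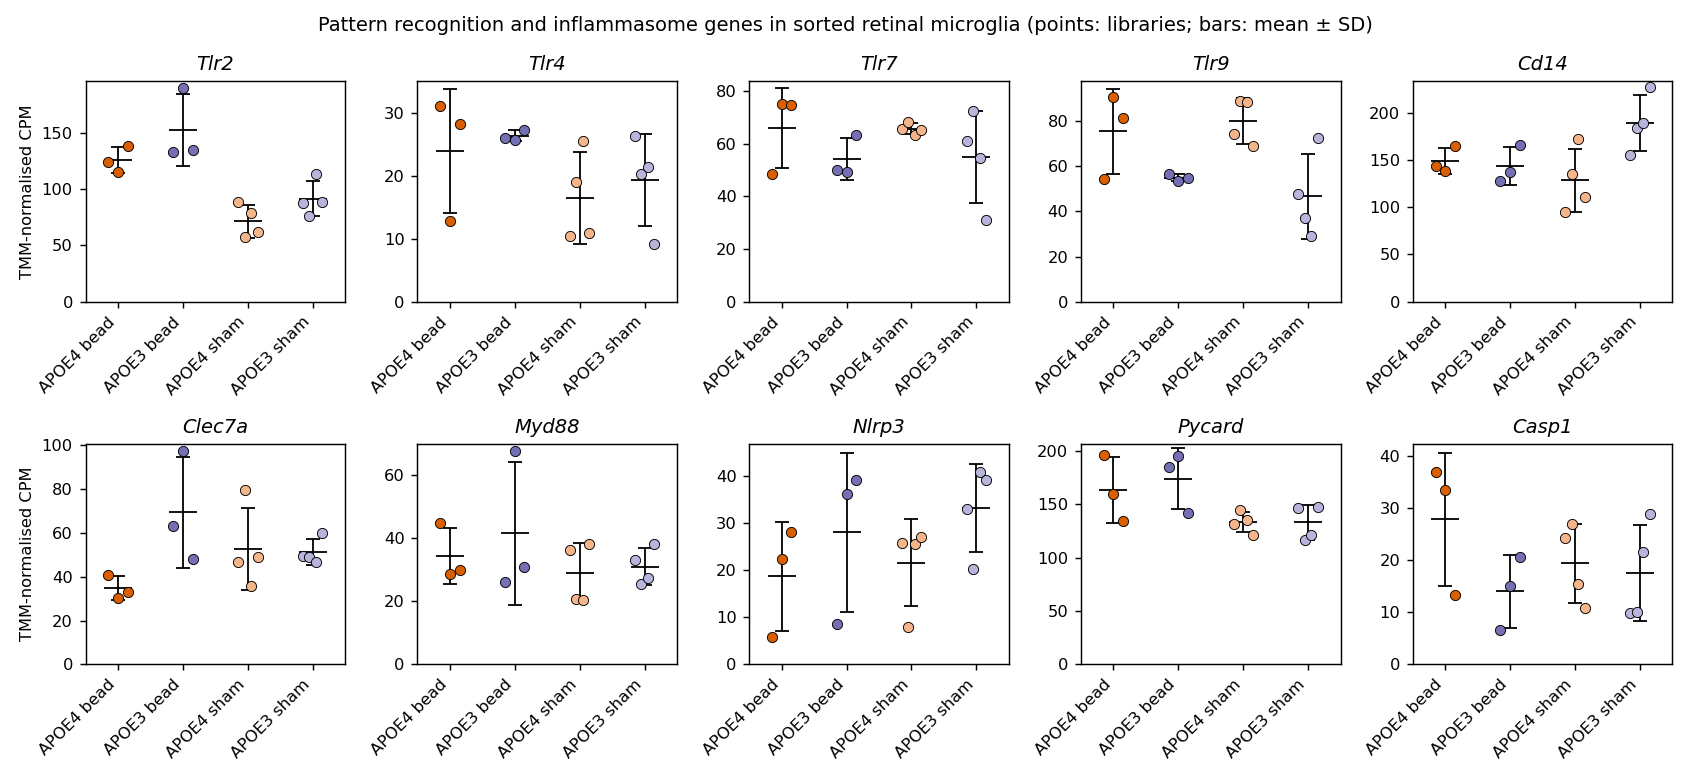
TMM-normalised CPM of the 10 genes in each library (points) with the mean and SD of each group (bars), for APOE4 microbead, APOE3 microbead, APOE4 sham and APOE3 sham (n = 3, 3, 4 and 4; "bead" stands for microbead). The 6 microbead libraries of Tlr2 lie above all 8 sham libraries, the 3 APOE4 microbead libraries of Clec7a (30.3 to 40.7 CPM) lie below the 3 of APOE3 microbead (47.8 to 97.3 CPM), and the groups of the other genes overlap in most pairs.

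Tlr4, the receptor for bacterial lipopolysaccharide (chr4:66827584-66930284, plus strand), was too shallow for a firm statement. It stood at 31.0, 12.8 and 28.2 CPM in APOE4 microbead and 26.1, 25.7 and 27.3 CPM in APOE3 microbead. It stood at 10.4, 19.1, 25.6 and 10.9 CPM in APOE4 sham and 26.4, 20.2, 21.5 and 9.22 CPM in APOE3 sham. The groups overlapped, with 6 to 24 reads per library. Over both genotypes its log2 fold change after microbeads was 0.50 ± 0.30 (SE, adjusted p = 0.519).

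Cd14, which hands lipopolysaccharide to Tlr4 and also serves Tlr2, stood at 144, 139 and 164 CPM in APOE4 microbead and 128, 137 and 166 CPM in APOE3 microbead. It stood at 95.1, 135, 172 and 111 CPM in APOE4 sham and 155, 184, 189 and 227 CPM in APOE3 sham. The highest values were thus in APOE3 sham. APOE4 sham library 3, APOE4 microbead library 3 and APOE3 microbead library 3 lay within their range. APOE4 against APOE3 after sham gave a log2 difference of -0.56 ± 0.20 (SE, adjusted p = 0.958), with means of 128 ± 33.7 and 189 ± 29.5 CPM (SD, n = 4 each). Microbead against sham in APOE3 gave -0.40 ± 0.22 (adjusted p = 0.420), and the genotype by treatment interaction was 0.61 ± 0.31 (adjusted p = 0.626). Over both treatments APOE4 against APOE3 gave -0.25 ± 0.15 (adjusted p = 0.797). None of these passed the threshold. Without both APOE3 microbead libraries 1 and 2 the log2 fold change in APOE3 was -0.19, and the interaction was 0.41.

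Clec7a (chr6:129461591-129472779, minus strand) had its lowest values in APOE4 microbead. It stood at 40.7, 30.3 and 33.2 CPM there, against 63.0, 97.3 and 47.8 CPM in APOE3 microbead. It stood at 46.7, 79.5, 35.8 and 49.0 CPM in APOE4 sham and 49.5, 48.9, 46.9 and 59.9 CPM in APOE3 sham. The 3 APOE4 microbead libraries lay below all 3 APOE3 microbead libraries and below all 4 APOE3 sham libraries, and overlapped APOE4 sham. All libraries of one group lay below all of the other in 7.26% of all genes in APOE4 against APOE3 after microbeads. The means were 34.7 ± 5.38 CPM in APOE4 and 69.4 ± 25.3 CPM in APOE3 after microbeads (SD, n = 3 each), a fold of 0.490 (log2 fold change -1.03 ± 0.32 SE, 95% interval -1.68 to -0.38). The adjusted p was 0.160, so the difference did not pass the threshold, and no alternative setting brought it past (log2 fold change -1.24 to -0.47, adjusted p 0.0537 to 1.000). It was -0.67 without APOE3 microbead library 2, -0.47 without libraries 1 and 2, and -0.60 with the monocyte covariate.

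The interaction of Clec7a was -1.06 ± 0.42 (SE, log2, adjusted p = 0.438), and ran from -1.28 to -0.50 over the alternatives, with -0.50 without both libraries. It combines -0.61 ± 0.31 after microbeads in APOE4 (adjusted p = 0.789) with 0.45 ± 0.28 after microbeads in APOE3 (adjusted p = 0.513). Over both treatments APOE4 against APOE3 gave -0.50 ± 0.21 (adjusted p = 0.560). In APOE3 the log2 fold change was 0.092 without APOE3 microbead library 2, -0.10 without libraries 1 and 2, where 1 library at 47.8 CPM is left, and -0.064 with the marker covariate. The highest Clec7a value, 97.3 CPM, was in APOE3 microbead library 2, which also had the highest monocyte and border macrophage markers. The part of those cells in the value was not tested. The annotation lists a polymorphic pseudogene and a protein-coding form of Clec7a of nearly the same sequence length (2272 and 2277 bases). The longer took reads in 2 libraries, 1 of APOE3 microbead and 1 of APOE3 sham, which had 0 on the other, so only the sum over the gene was used.

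**Figure D3:**
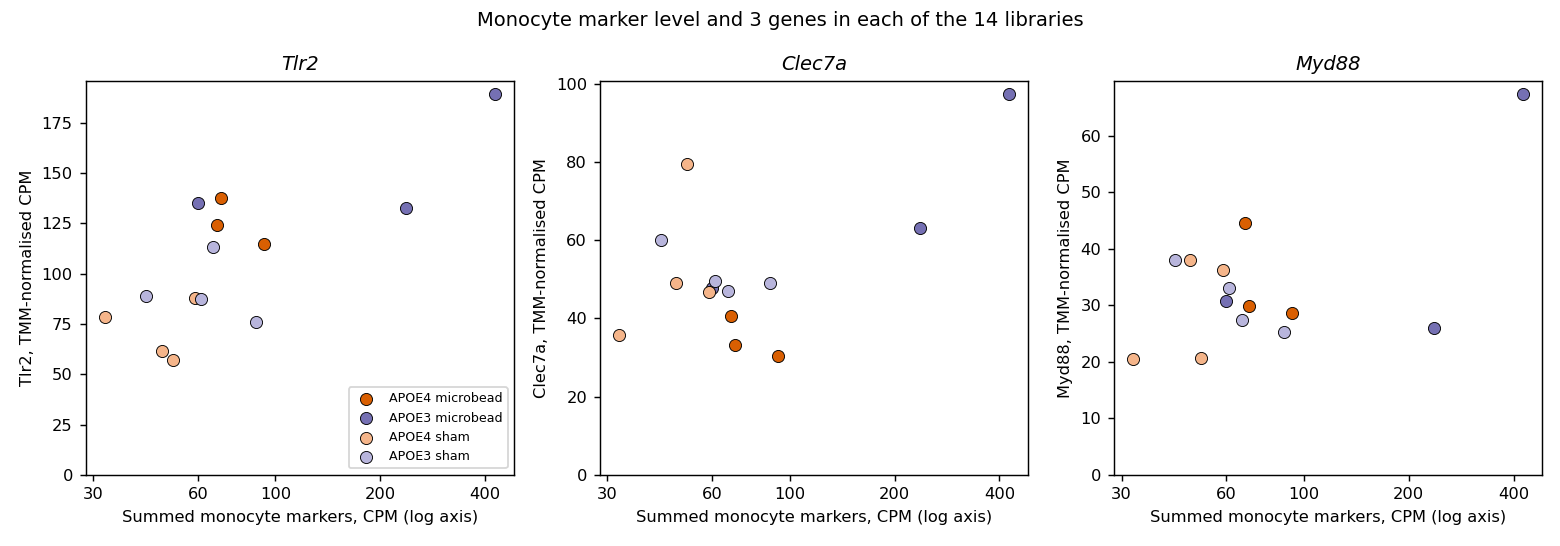
Tlr2, Clec7a and Myd88 in CPM (vertical axes) against the summed CPM of 12 monocyte markers on a log axis (horizontal), 1 point per library, coloured by group. APOE3 microbead library 2, at 426 CPM of monocyte markers, holds the highest value of all 3 genes (189, 97.3 and 67.4 CPM). The other microbead libraries hold 115 to 138 CPM of Tlr2 at marker sums of 59.8 to 237 CPM. The part of monocytes was not tested here.

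Of the endosomal receptors, Tlr9, which recognises unmethylated CpG DNA (chr9:106222598-106226883, plus strand), was at higher values in APOE4 than in APOE3. It stood at 54.3, 90.9 and 81.3 CPM in APOE4 microbead, against 56.5, 53.5 and 54.7 CPM in APOE3 microbead. It stood at 74.3, 89.0, 88.7 and 68.9 CPM in APOE4 sham, against 47.8, 37.1, 29.3 and 72.6 CPM in APOE3 sham. After microbeads 1 APOE4 library lay within the range of APOE3, and after sham 1 APOE3 library lay within that of APOE4. The log2 fold change of APOE4 against APOE3 was 0.47 ± 0.29 (SE, adjusted p = 0.676) after microbeads and 0.74 ± 0.25 (adjusted p = 0.958) after sham. Over both treatments, a comparison added after the data were seen, it was 0.61 ± 0.19 (95% interval 0.21 to 1.00, adjusted p = 0.373). Its direction held in all 28 alternatives, with log2 fold changes of 0.51 to 0.76 and adjusted p-values of 0.145 to 1.000.

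Tlr7, which recognises single-stranded RNA (X chromosome, positions 167304929 to 167330558, minus strand), stood at 48.5, 74.9 and 74.7 CPM in APOE4 microbead and 49.9, 49.2 and 63.2 CPM in APOE3 microbead. It stood at 65.7, 68.3, 63.1 and 65.3 CPM in APOE4 sham and 61.0, 72.5, 54.7 and 31.1 CPM in APOE3 sham. All pairs of groups overlapped. Over both treatments APOE4 against APOE3 gave 0.29 ± 0.19 (SE, log2, adjusted p = 0.816).

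APOE4 against APOE3 gave no call among the 10 genes in any treatment. After microbeads 0 of 10 were called, against 0.591% of all genes, and 1 of 10 (Clec7a) had an unadjusted p under 0.05, against 9.89%. After sham 0 of 10 were called, against 0.0263%, and 2 of 10 (Tlr9 and Cd14) had an unadjusted p under 0.05, against 4.42%. The interaction called 0 of 10, against 0.0919%, and 1 of 10 had an unadjusted p under 0.05, against 8.13%. Over both treatments 0 of 10 were called, against 0.131%, and 2 of 10 (Tlr9 and Clec7a) had an unadjusted p under 0.05, against 7.1%. Counts of 1 or 2 in 10 do not set these genes apart from all genes. DESeq2 and limma-voom also called 0 of 10 in each of these 4 comparisons and in APOE4 microbead against sham. For APOE4 against APOE3 after microbeads, DESeq2 gave an adjusted p to only 2743 of 7617 genes. It gave 1857 in the interaction and 3629 in APOE4 microbead against sham. A gene without an adjusted p could not be called, so the DESeq2 counts of 0 there say less. In APOE4 against APOE3 after sham, none of the 10 genes had groups that lay apart, against 3.56% of all genes in either direction.

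Myd88, the adaptor shared by these receptors and by the interleukin-1 receptor (chr9:119335934-119341411, minus strand), stood at 44.6, 28.7 and 29.9 CPM in APOE4 microbead and 26.1, 67.4 and 30.8 CPM in APOE3 microbead. It stood at 36.3, 20.7, 20.5 and 38.1 CPM in APOE4 sham and 33.0, 25.3, 27.3 and 38.0 CPM in APOE3 sham. A single library, APOE3 microbead 2, stood far above its group. The log2 fold change after microbeads in APOE3 was 0.47 ± 0.34 (SE, adjusted p = 0.612), and without that library it was -0.13. Over both genotypes it was 0.36 ± 0.25 (adjusted p = 0.606).

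Of the inflammasome genes, Nlrp3 (chr11:59541568-59566956, plus strand) stood at 5.82, 22.3 and 28.2 CPM in APOE4 microbead and 8.68, 36.4 and 39.3 CPM in APOE3 microbead. It stood at 25.9, 7.95, 25.6 and 27.2 CPM in APOE4 sham and 33.0, 20.2, 41.0 and 39.2 CPM in APOE3 sham. Each group but APOE3 sham held a library under 10 CPM, and the groups overlapped. APOE4 against APOE3 gave -0.63 ± 0.43 (SE, log2, adjusted p = 0.958) after sham and -0.62 ± 0.33 (adjusted p = 0.762) over both treatments.

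Pycard (chr7:127989708-127993867, minus strand), the deepest of the 3, stood at 196, 159 and 134 CPM in APOE4 microbead and 185, 196 and 142 CPM in APOE3 microbead. It stood at 131, 145, 135 and 122 CPM in APOE4 sham and 147, 116, 121 and 147 CPM in APOE3 sham. In each genotype 2 of 3 microbead libraries were above all sham libraries of that genotype, and the third was within their range. The log2 fold change after microbeads was 0.29 ± 0.20 (SE, adjusted p = 0.899) in APOE4, 0.39 ± 0.20 (adjusted p = 0.390) in APOE3 and 0.34 ± 0.14 (adjusted p = 0.242) over both genotypes. Without both APOE3 microbead libraries 1 and 2 it was 0.095 in APOE3 and 0.20 over both genotypes. Beside Tlr2, Pycard was the other of the 10 genes with an unadjusted p under 0.05 over both genotypes, which 14% of all genes reached.

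Casp1 (chr9:5298517-5307265, plus strand) stood at 36.8, 33.5 and 13.3 CPM in APOE4 microbead and 6.51, 14.97 and 20.5 CPM in APOE3 microbead. It stood at 24.2, 27.01, 15.4 and 10.9 CPM in APOE4 sham and 9.90, 10.1, 21.5 and 28.8 CPM in APOE3 sham. The groups overlapped at 3 to 25 reads per library. APOE4 against APOE3 after microbeads gave 0.94 ± 0.51 (SE, log2, adjusted p = 0.577), with means of 27.9 ± 12.7 and 13.996 ± 7.05 CPM (SD, n = 3 each), and over both treatments 0.52 ± 0.34 (adjusted p = 0.813). Without both APOE3 microbead libraries 1 and 2 these were 0.43 and 0.27.

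The fold changes of these genes not given above were smaller relative to their error. They lay between -0.16 and 0.52 (log2) after microbeads in APOE4, between -0.32 and 0.48 in APOE3, between -0.61 and 0.30 for APOE4 against APOE3 after microbeads and between -0.19 and 0.28 after sham. The widest of their 95% intervals there reached -1.65 and 1.44, so changes of more than 2-fold in either direction were not excluded for the shallow genes. In the interaction the values lay between -0.27 and 0.82, with intervals reaching -1.38 and 2.20. Over both genotypes they lay between -0.18 and 0.093, and over both treatments between -0.23 and -0.049.

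**Figure D4:**
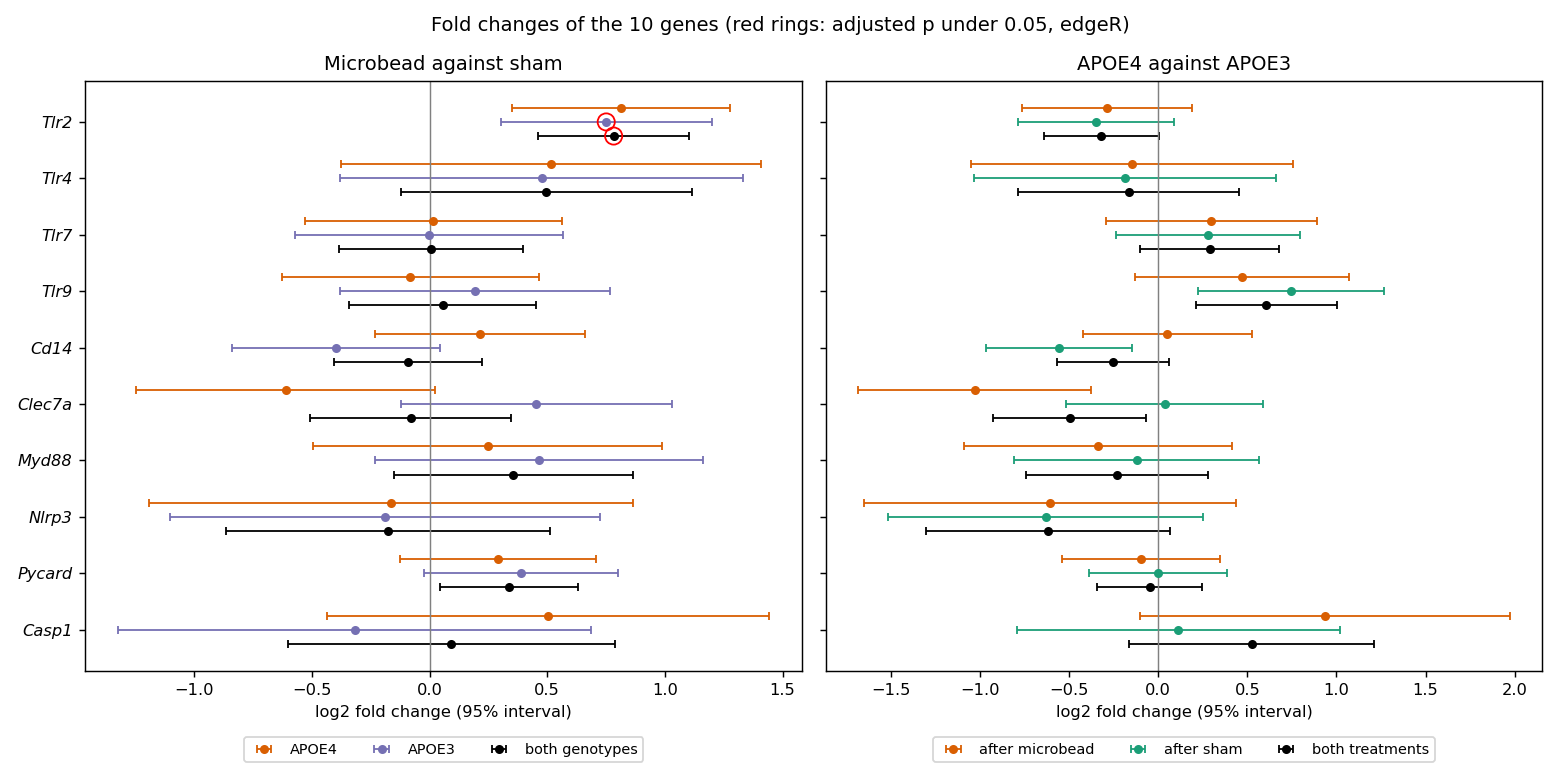
Log2 fold changes of the 10 genes with 95% intervals, for microbead against sham (left panel: APOE4, APOE3 and both genotypes) and APOE4 against APOE3 (right panel: after microbead, after sham and both treatments). Red rings mark an edgeR adjusted p under 0.05, which Tlr2 alone reached, in APOE3 (0.75) and over both genotypes (0.78).

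The other genes of these pathways were followed in 5 lists of 98 genes, of which 74 passed the filter. In APOE3, 7 of the 74 rose and 2 fell after microbeads, against 3.62% and 1.71% of all genes, and in APOE4 0 of 74 passed the test, also by DESeq2 and limma-voom. An unadjusted p under 0.05 was reached in APOE4 by 3 of 11, 2 of 20, 2 of 14, 1 of 15 and 5 of 14 genes of the lists in the order below, 13 of 74 in all, against 6.49% of all genes. APOE4 against APOE3, after microbeads or after sham, and the interaction called 0 in every list, also by DESeq2 and limma-voom. In APOE4 microbead against sham, APOE4 against APOE3 after microbeads and the interaction, DESeq2 left many genes without an adjusted p, which could not be called. An unadjusted p under 0.05 was reached by 10 of the 74 genes after microbeads, 1 after sham and 6 in the interaction, against 9.89%, 4.42% and 8.13% of all genes. The 9 calls in APOE3 fell to 3 higher and 1 lower without APOE3 microbead library 2, and to 1 higher and 0 lower both without the 2 libraries high in monocyte markers, which leaves 1 in the group, and with the marker covariate. In these settings the 9 genes kept the direction of their fold changes, which are given below where a call was lost. The settings also have fewer libraries or a further term in the fit, and why calls were lost was not tested. The part of monocytes was not tested further. Over both genotypes 9 of the 74 rose and 2 fell, against 3.3% and 1.35% of all genes, and 1 rose and 0 fell without the 2 libraries or with the covariate.

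Of the other Toll-like receptors and their accessory proteins 0 of 11 rose and 1 fell in APOE3, with a list median of -0.20 (log2), against -0.016 for all genes. The gene was Cd180, a receptor related to Tlr4 that acts on responses to lipopolysaccharide. It averaged 89.4 ± 6.16 CPM in APOE3 microbead and 164 ± 23.999 CPM in APOE3 sham (SD, n = 3 and 4), a log2 difference of -0.88 ± 0.22 (SE, adjusted p = 0.0140). In APOE4 it averaged 135 ± 14.5 CPM after microbeads and 185 ± 45.4 CPM after sham (SD, n = 3 and 4), a log2 fold change of -0.46 (adjusted p = 0.744). The APOE3 call was lost without APOE3 sham library 4 (adjusted p = 0.0511) and without APOE3 microbead library 2 (log2 -0.83, adjusted p = 0.0804). The log2 value was -0.78 without both libraries and -0.64 with the covariate.

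Of 20 adaptors and kinases of Toll-like receptors 0 passed the test within either genotype, with list medians of 0.020 in APOE4 and 0.11 in APOE3. The 3 with the smallest p-values were Pik3ap1, Peli1 and Tab1. Pik3ap1, which links these receptors to phosphoinositide 3-kinase, had log2 differences of 0.85 ± 0.24 (SE, adjusted p = 0.186) after microbeads in APOE4 and 0.59 ± 0.24 (adjusted p = 0.198) in APOE3. Over both genotypes it passed the test, at 0.72 ± 0.17 (adjusted p = 0.00900). It averaged 253 ± 69.4 CPM in APOE4 microbead, 189 ± 48.6 CPM in APOE3 microbead, 141 ± 19.2 CPM in APOE4 sham and 126 ± 35.8 CPM in APOE3 sham (SD). Peli1, a ubiquitin ligase of this pathway, had -0.17 ± 0.28 in APOE4 and -0.85 ± 0.30 (adjusted p = 0.110) in APOE3. Tab1, a partner of the kinase Map3k7, had 1.64 ± 0.59 (adjusted p = 0.452) in APOE4 on 36 reads after microbeads and 15 after sham.

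Of 14 C-type lectin receptors and genes of CARD9 signalling, 2 rose and 0 fell in APOE3, and the list median was 0.30 in APOE4 and 0.42 in APOE3. Clec4n (Dectin-2), a receptor for fungal mannans, held 58.6, 83.4 and 8.54 CPM in the APOE3 microbead libraries. It had 110 reads there, 78 of them in library 2, against 2 reads in APOE3 sham. The ratio per library size was 71.6 (exact 95% interval 19.4 to 599, counting error only). The edgeR log2 fold change of Clec4n was 5.72 ± 1.08 (SE, adjusted p = 0.00326). In APOE4 it had 11 reads after microbeads, all in 1 library, against 1 after sham. The interaction was -2.38 (95% interval -9.53 to 4.77, adjusted p = 0.943). The 2 APOE3 libraries with the highest Clec4n were those with high monocyte markers, and the third, at 8.54 CPM, was also above every APOE3 sham library (0 to 1.65 CPM). With that library alone the fitted log2 value was 3.19 (adjusted p = 0.764), and with the covariate 3.22 (adjusted p = 0.373). Clec4a3, a lectin receptor of myeloid cells, rose by 1.43 ± 0.34 (SE, log2, adjusted p = 0.00955) in APOE3, and was lost without APOE3 microbead library 2 (1.02, adjusted p = 0.205). It was 1.02 without both libraries and 0.88 with the covariate. In APOE4 its log2 fold change was 0.48 ± 0.34 (adjusted p = 0.902). Clec4n and Clec4a3 belong to a family of similar genes in one cluster, whose reads the estimates may divide between copies.

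Of 15 other inflammasome genes 1 rose and 1 fell in APOE3, with list medians of 0.010 in APOE4 and 0.11 in APOE3. Il1b, the precursor of interleukin-1β and a substrate of Casp1, held 23.9, 20.3 and 27.3 CPM in the APOE3 microbead libraries, against 0, 0, 1.95 and 1.15 CPM in the APOE3 sham libraries. These are 46 and 2 reads, a ratio of 29.9 (exact 95% interval 7.83 to 255, counting error only). The edgeR log2 fold change was 4.62 ± 1.02 (SE, adjusted p = 0.00440). In APOE4 it held 3.88, 3.19 and 3.32 CPM after microbeads, against 0, 1.59, 0 and 3.63 CPM after sham, on 6 and 3 reads (ratio 2.69, interval 0.574 to 16.6, adjusted p = 0.938). Il1b was at 27.3 CPM also in APOE3 microbead library 3, whose monocyte markers were at 59.8 CPM. The part of other cell types in Il1b was not tested. Without the other 2 libraries the fitted log2 value of Il1b was 4.82, and with the marker covariate 4.86 (adjusted p = 0.0615), beside 4.62 with all libraries. Txnip, a thioredoxin-binding protein described as a partner of Nlrp3, fell by 0.91 on the log2 scale in APOE3 (SE 0.23, adjusted p = 0.0132), with means of 96.0 ± 30.7 CPM after microbeads and 183.1 ± 21.8 CPM after sham (SD, n = 3 and 4). In APOE4 its log2 fold change was -0.21 (adjusted p = 0.946), and the APOE3 call was lost without APOE3 microbead library 1 (adjusted p = 0.104). The interaction of Txnip was 0.70 (95% interval 0.045 to 1.35, adjusted p = 0.562). In APOE3 the log2 value was -0.98 without both libraries and -1.001 with the covariate. In APOE3 the substrate Il1b passed the test and the complex genes Nlrp3, Pycard and Casp1 did not, and the difference between them was not tested.

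Of 14 cytosolic nucleotide-binding and nucleic acid sensors 4 rose and 0 fell in APOE3, and the list median was 0.66 in APOE4 and 1.08 in APOE3, against -0.0037 and -0.016 for all genes. Ifi207, an interferon-induced gene of the DNA-sensing PYHIN family, averaged 66.1 ± 18.7 CPM in APOE3 microbead and 5.71 ± 4.29 CPM in APOE3 sham (SD, n = 3 and 4), a log2 difference of 3.42 ± 0.50 (SE, adjusted p = 0.000118). In APOE4 it averaged 36.0 ± 18.2 CPM after microbeads and 11.7 ± 7.69 CPM after sham (SD, n = 3 and 4), a log2 fold change of 1.60 ± 0.49 (adjusted p = 0.292). Its APOE3 call was kept in all 29 alternatives. Ifi204, of the same family, rose by 1.35 ± 0.36 (adjusted p = 0.0234) in APOE3 and had 1.26 ± 0.36 (adjusted p = 0.214) in APOE4. Nlrc5, the activator of class I antigen presentation genes, rose by 1.65 ± 0.41 (adjusted p = 0.0132) in APOE3 and had 1.44 ± 0.39 (adjusted p = 0.165) in APOE4. Zbp1, a sensor of Z-form nucleic acids, rose by 2.62 ± 0.67 (adjusted p = 0.0162) in APOE3 and had 1.51 ± 0.65 (adjusted p = 0.650) in APOE4.

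These 4 sensors had positive fold changes in both genotypes, passed the test in APOE3 and not in APOE4, and none had a called interaction, so a difference between the genotypes was not shown. Leaving out APOE3 microbead library 2 gave log2 fold changes in APOE3 of 1.12 for Ifi204 (adjusted p = 0.166), 1.63 for Nlrc5 (0.0584) and 2.02 for Zbp1 (0.274). Without both libraries they were 1.09, 1.24 and 1.51, and with the covariate 1.05, 1.31 and 1.399, so the fold changes stayed above 0 where the calls were lost. Ifi204 was also lost without APOE3 sham library 1 (0.0743) or 2 (0.0836), Nlrc5 without APOE3 sham library 4 (0.0509) or APOE3 microbead library 1 (0.0612), and Zbp1 without APOE3 sham library 2 (0.0559). Ifi204 and Ifi207 are similar genes of one cluster, so the division of reads between them is uncertain.

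**Figure D5:**
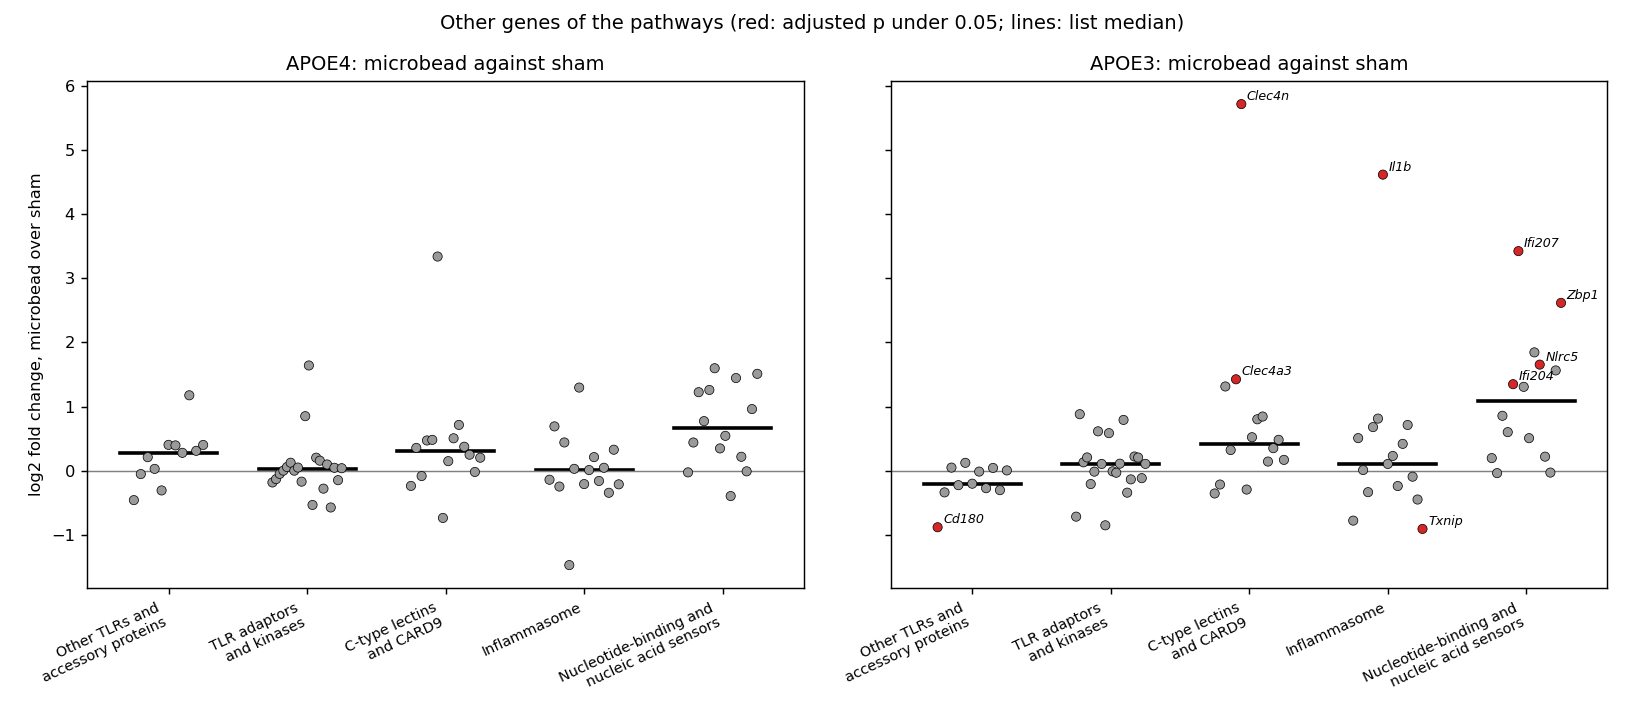
Log2 fold change of microbead over sham for each tested gene of the 5 lists in APOE4 (left) and APOE3 (right), with the list median as a black line and genes at an adjusted p under 0.05 in red. In APOE3 the list of nucleotide-binding and nucleic acid sensors has the highest median (1.08) and 4 red points, and in APOE4 no point is red.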

How the data were processed

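Per the submitters' processing notes, Salmon 1.4.0, the mm10 build, R 4.0.3 and DESeq2 1.30.1 were used. The deposited files hold estimated counts per transcript with their effective length (a score in bases), and a deposited series table holds TPM per gene. All columns belonged to a sample (columns of no sample: 0). Estimated counts were summed per gene with GENCODE M21 (GRCm38) and rounded. Of 116945 transcripts, 922 were not in that annotation. Of these, 257 were added to 223 genes whose deposited TPM they completed in all 14 libraries (residual under 0.001 TPM), among them 3 of Casp1, and 665 were left out (0.192% to 0.315% of reads). The summed TPM of all 10 genes then equalled the deposited value in 14 of 14 libraries. Recomputed TPM lay within 1% of the column of the same library for 99.7% to 99.8% of genes.

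Groups were compared with the edgeR 4.0.16 quasi-likelihood test (R 4.3.3, robust, TMM) in 1 model of 4 group means over all 14 libraries, after filterByExpr by group (minimum count 10, minimum total 15). Tests were two-sided, p-values were Benjamini-Hochberg adjusted over 7617 genes, and genes were called at an adjusted p under 0.05. Every adjusted p is from this test unless another tool is named. SE was derived from the F statistic. limma 3.58.1 and DESeq2 1.42.0 served as alternatives. Ratios of reads have exact 95% intervals, which cover counting error only. Of the 10 genes, fold changes are given for Tlr2 and where an unadjusted p was under 0.2; of the pathway lists, genes called in any of 5 comparisons are named, or else the 3 with the smallest p in a microbead comparison. Genes and lists were chosen with earlier results of these data known. The 2 comparisons over both genotypes and over both treatments, and the settings without both APOE3 microbead libraries 1 and 2, with a monocyte covariate and with GENCODE M21 transcripts alone, were chosen after seeing the data. Same-numbered libraries did not deviate together, so numbers were not used as pairs.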

Additional observations from a re-analysis of the deposited data

Results flagged for a closer look

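In APOE4 sham, library 2 had 7.95 CPM of Nlrp3, against 25.6 to 27.2 CPM in the other 3 libraries of its group. The gap to its nearest neighbour was 0.916 of the range of the group, above the 95% critical value of Dixon's test for 4 samples. Chance alone passes that critical value in about 1 in 20 groups, 20 sets of 4 libraries were looked at, and the value rests on few reads.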

How the results depend on the processing

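Across 29 alternatives, 1206 of 1221 values of 43 single-gene fold changes kept their direction. The call of Tlr2 in APOE3 was kept in 13 alternatives and lost in 16 (log2 fold change 0.56 to 0.86, adjusted p 0.0274 to 0.992). The 15 values that turned belong to 4 fold changes, none of them called. The Tlr2 interaction was -0.18 with library totals, -0.29 and -0.30 with limma on log2(TPM + 1) and log2(TPM + 0.5), and -0.047 to 0.26 with 1 library left out. Myd88 in APOE3 was -0.018 without both APOE3 microbead libraries 1 and 2, -0.039 with the monocyte covariate and -0.13 to 0.68 with single libraries left out. In those 2 settings Clec7a in APOE3 was -0.10 and -0.064. Pycard in APOE4 was -0.13 and -0.13 with limma on TPM. The causes were not tested. The median of all genes lay at -0.22 (APOE4 microbead against sham) and -0.19 (interaction) with library totals, and at -0.29 in both with limma on log2(TPM + 1).

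Of the 10 genes, 0 were called in APOE3 with library totals, no filter, only the libraries compared, length offsets, limma on TPM (both pseudocounts), the replicate block, without both libraries or with the covariate, and 0 to 1 with 1 library left out. Over both genotypes 0 were called with library totals, limma on TPM, without both and with the covariate. No paired design was given: 19 same-numbered pairs had correlations of -0.118 to 0.0894, and the replicate block gave Tlr2 in APOE3 0.73 (adjusted p = 0.113).

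All genes called are given in the order APOE4 against APOE3 after microbeads (45), after sham (2), over both treatments (10), microbead against sham in APOE4 (17), in APOE3 (406), over both genotypes (354) and the interaction (7). DESeq2 gave 69, 3, 21, 34, 397, 351 and 46. limma-voom gave 46, 0, 6, 10, 361, 309 and 6. Library totals gave 16, 1, 4, 3, 158, 133 and 3. No filter gave 111, 13, 50, 51, 477, 393 and 29. A minimum count of 20 gave 46, 1, 13, 17, 394, 336 and 11. Length offsets gave 25, 1, 7, 5, 224, 170 and 0. limma on log2(TPM + 1) gave 18, 2, 5, 2, 40, 34 and 3, and on log2(TPM + 0.5) 11, 2, 5, 2, 38, 29 and 0. The replicate block gave 37, 1, 4, 6, 296, 213 and 3. Without both libraries the counts were 2, 2, 2, 26, 37, 93 and 1, and with the covariate 4, 2, 4, 5, 49, 46 and 1. GENCODE M21 alone gave 44, 1, 8, 17, 395, 351 and 7. With only the libraries compared the first 2 were 33 and 1, APOE4 gave 47 and APOE3 231. Leaving out 1 library gave 13 to 137, 1 to 2, 3 to 36, 2 to 18, 231 to 485, 245 to 413 and 0 to 30.

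Calls in the lists moved as follows in APOE3. The 2 C-type lectin calls were 1 with limma-voom, library totals, a minimum count of 20 or only the libraries compared, 0 with limma on TPM, without both libraries or with the covariate, and 1 to 3 with 1 library left out. The 4 calls among nucleotide-binding genes and nucleic acid sensors were 2 with only the libraries compared, length offsets or the replicate block. They were 1 with limma on TPM or with the covariate, and 1 to 5 with 1 library left out. The 2 inflammasome calls were 1 with library totals, a minimum count of 20, only the libraries compared, length offsets, limma on TPM or the replicate block, 0 without both or with the covariate, and 1 to 2 with 1 library left out. The 1 call among other Toll-like receptors was 0 with library totals, limma on TPM, the replicate block, without both or with the covariate, and 0 to 1 with 1 library left out. Of lists at 0, the sensors in APOE4 had 2 with no filter, 1 with only the libraries compared and 0 to 1 with 1 library left out, and the adaptors in APOE4 had 1 with only the libraries compared (Pik3ap1, adjusted p = 0.0246). After microbeads, APOE4 against APOE3 called 1 C-type lectin with no filter or the replicate block and 0 to 2 with 1 library left out, and 1 inflammasome gene with limma on log2(TPM + 1). Depth limits Tlr4, Nlrp3 and Casp1, with 3 to 34 reads per library.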
